A study of Mus musculus with 20 samples.

Results

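The elastic fibre genes examined here are 10 of the 43422 genes measured in the abdominal aorta of 20 mice. They were chosen by name: Eln, Fbn1, Mfap2, Mfap5, Mfap4, Emilin1, Fbln1, Fbln2, Fbln5 and Efemp2, and all 10 had a value in every mouse. The aortas came from 4 groups of 5 mice each: wild-type (WT) mice given saline or angiotensin II (Ang II), and Plod1-/- mice given saline or Ang II. Ang II, a peptide that raises blood pressure, was given at 1000 ng/kg per minute by osmotic pump, and tissue was taken on day 14. All groups carry the C57BL/6 strain label and an age of 6 months, although the study's methods state a younger age at the start of infusion and describe male mice. Plod1 encodes lysyl hydroxylase 1 (LH1), which hydroxylates lysines in collagen chains, and it is deleted in every cell of the Plod1-/- mice, so no value can be assigned to the loss of LH1 in 1 cell type. Each sample is whole abdominal aortic tissue, in which adipocyte and skeletal muscle markers, given below, were also found. How much tissue from outside the wall it holds was not tested. The deposited values are FPKM, fragment numbers scaled to the length of the transcript and to the size of the library. The comparisons ask how deletion of Plod1, Ang II and both together alter the transcripts of elastic fibre proteins.

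Elastic fibres give the aorta its recoil. Their core is cross-linked elastin, the product of Eln, which is laid down on a scaffold of microfibrils built from fibrillin-1 (Fbn1). MFAP2 and MFAP5 bind fibrillin microfibrils, MFAP4 binds elastin and microfibrils, and EMILIN-1 lies where elastin and microfibrils meet. Fibulin-5 (Fbln5) and fibulin-4 (Efemp2) bring elastin and lysyl oxidases together during assembly, whereas fibulin-1 (Fbln1) and fibulin-2 (Fbln2) are found within or around the finished fibre. Elastic lamellae of the aorta are made mainly by smooth muscle cells early in life, and adventitial fibroblasts also express many of these genes.

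Plod1 was at or above 22.8 FPKM in every WT mouse and at or below 0.0415 FPKM in every Plod1-/- mouse, as the genotype labels state. Xist RNA, which is made in female cells, was above 1 FPKM in 2 libraries, saline-treated Plod1-/- replicate 5 (15.1 FPKM) and Ang II-treated Plod1-/- replicate 1 (7.93 FPKM), and at or below 0.0328 FPKM in the other 18. This goes against the male mice of the study's methods, so the elastic fibre genes chosen by name were also tested without these libraries. Results for other pathway genes, marker lists, shares, variation between mice and likeness of genes were not repeated without them. Ang II-treated Plod1-/- replicate 1 also stood farthest from the median of its own group, with a root-mean-square log2 difference of 0.73 over the genes tested, followed by Ang II-treated WT replicate 4 (0.61) and replicate 1 (0.54). The other 17 libraries lay between 0.27 and 0.49. The 8 smooth muscle markers, which include Acta2 and Myh11, were above 0 in every mouse. Their summed FPKM ran from 14453 to 20802 in saline-treated WT and from 15272 to 21101 in saline-treated Plod1-/- mice. Under Ang II it was between 5621 and 10684 in 4 WT mice and 17372 in replicate 4, and between 2372 and 6290 in 4 Plod1-/- mice and 17231 in replicate 1. In whole tissue, fewer cells of a type and less RNA per cell cannot be told apart.

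Promoter windows from RefSeq (GRCm38.p6, from 250 bases before to 50 after a transcript start) were found for 7 of the 10 genes; Eln, Mfap4 and Mfap5 were not matched. The windows of 3 fibulins are shown because these genes differed from one another across the groups and none of the 250 bases before their start lies in an exon annotated in GENCODE M21. Capitals mark matches, on either strand, to a GC box (GGGCGG), a SMAD-like site (CAGACA) or an E-box (CACGTG).
Fbln1, chr15:85205699-85205948, plus strand: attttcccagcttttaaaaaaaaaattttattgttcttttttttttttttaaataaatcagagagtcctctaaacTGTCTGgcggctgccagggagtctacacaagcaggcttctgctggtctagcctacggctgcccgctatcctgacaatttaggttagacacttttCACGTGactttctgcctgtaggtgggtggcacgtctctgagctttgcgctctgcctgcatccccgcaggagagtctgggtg
Fbln5, chr12:101819120-101819369, minus strand: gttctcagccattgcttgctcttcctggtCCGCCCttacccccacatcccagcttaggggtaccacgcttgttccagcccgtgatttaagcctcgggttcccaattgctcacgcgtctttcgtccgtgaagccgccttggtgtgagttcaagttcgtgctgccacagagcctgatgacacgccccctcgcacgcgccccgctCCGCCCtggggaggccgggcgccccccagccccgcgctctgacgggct
Efemp2, chr19:5473696-5473945, plus strand: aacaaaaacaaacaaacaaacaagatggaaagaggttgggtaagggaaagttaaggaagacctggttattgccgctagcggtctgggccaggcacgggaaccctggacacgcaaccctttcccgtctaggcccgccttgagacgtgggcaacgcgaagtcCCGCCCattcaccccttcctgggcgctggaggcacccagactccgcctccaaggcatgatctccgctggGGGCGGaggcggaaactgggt
Where several starts were listed (2 for Fbln1, Fbln5 and Mfap2, 3 for Efemp2), only the window nearest the annotated gene start was searched. In these windows Fbln1 had no GC box, whereas Fbln5 and Efemp2 each had 2. A GC box was present in 4 of the 7 windows (Fbn1, Fbln2, Fbln5 and Efemp2) and in 35.7% of all 32851 windows of the same length. The 250 bases before the start of Fbn1, Fbln2 and Emilin1 lie wholly in annotated exons, so these windows may not be promoters. The SMAD-like site was present in 3 (Fbln1, Mfap2 and Emilin1) and in 21% of all windows, and the E-box, which reads the same on both strands, in Fbln1 alone and in 7.15% of all windows. No match to a TATA box (TATAAA), an AP-1 site (TGANTCA) or a CArG box was found in the 7 windows; these letters occur in 13.6%, 7.81% and 1.63% of all windows. The GC content of the 250 bases was 46.4% for Fbln1, 65.2% for Fbln5 and 59.2% for Efemp2, against a median of 52.4% over all windows. A match to these letters is a description of the window and not evidence of binding.

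In saline-treated WT mice the most abundant of the 10 transcripts was Mfap4, at 628 ± 79.0 FPKM (SD, n = 5), followed by Eln at 201 ± 101 FPKM (SD, n = 5). Mfap4 was at 672, 662, 495, 692 and 618 FPKM in replicates 1 to 5. Eln was at 185, 314, 83.8, 295 and 128 FPKM. The lowest Mfap4 value thus lay above the highest Eln value, while Eln itself varied widely between mice of 1 group. The fibulins Fbln1, Fbln5 and Efemp2, with means of 123, 94.1 and 76.7 FPKM, and Mfap5, at 77.5 FPKM, followed, and each overlapped its neighbour in the order. Emilin1 (33.5 FPKM) and Fbln2 (31.0 FPKM) overlapped each other, as did Fbn1 (20.1 FPKM) and Mfap2 (18.2 FPKM), but Emilin1 did not overlap Efemp2, and Fbn1 did not overlap Fbln2. Values of these levels for Efemp2, Mfap4, Eln and Fbn1 are uncertain to the extent that an opposite-strand gene overlaps each (Mus81, Mapk7, Gm30003 and Gm9913), because the libraries did not keep strand. The highest FPKM of those genes in any mouse was 9.62, 14.4, 0.284 and 0.229.

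**Figure D1:**
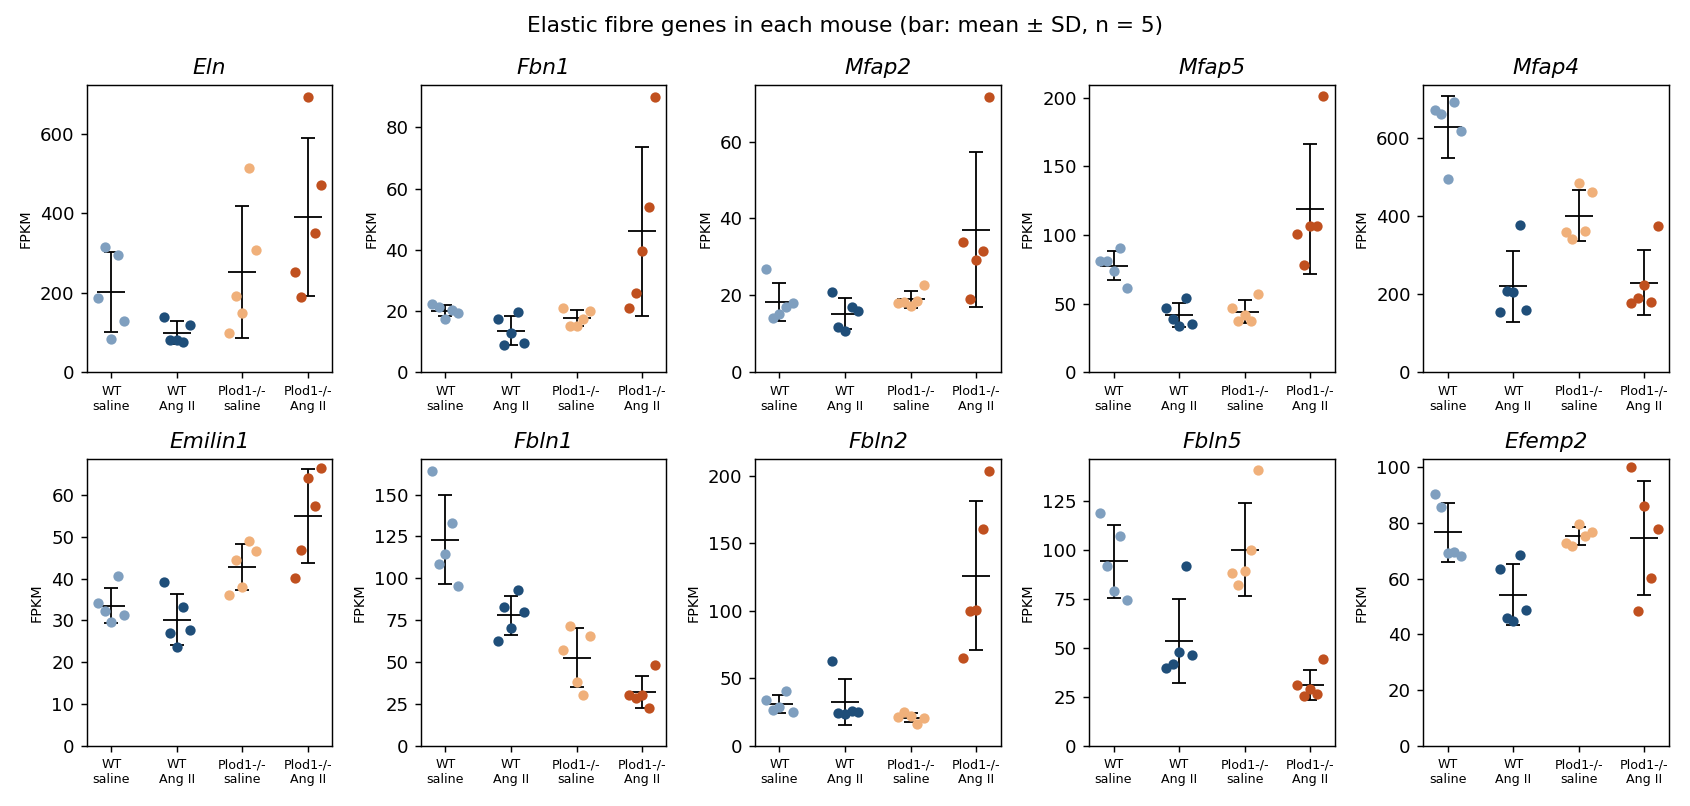
FPKM of the 10 elastic fibre genes in each mouse (y axis, linear, starting at 0) by group (x axis); points are mice in replicate order and bars show mean ± SD (n = 5). Mfap4 was highest in saline-treated WT mice (495 to 692 FPKM), Fbln2 was highest in Ang II-treated Plod1-/- mice (65.2 to 203 FPKM), and Eln varied from 98.3 to 514 FPKM within saline-treated Plod1-/- mice.

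Without Ang II, deletion of Plod1 was accompanied by lower Fbln1, Mfap5 and Mfap4, and the other 7 genes did not pass the test. Fbln1, a fibulin of the vessel wall, was at 164, 109, 114, 133 and 95.2 FPKM in saline-treated WT mice and at 57.4, 71.8, 38.2, 30.3 and 65.6 FPKM in saline-treated Plod1-/- mice. Every Plod1-/- mouse lay below every WT mouse. The log2 fold change, on the log2(FPKM + 1) scale used throughout, was -1.26 (SE 0.24, adjusted p = 0.0200 by limma), or 0.419-fold. Mfap5 was at 81.0, 80.7, 73.7, 90.5 and 61.7 FPKM in WT and at 46.8, 37.2, 41.5, 37.5 and 57.0 FPKM in Plod1-/- mice. Its groups did not overlap either, and its log2 fold change was -0.81 (SE 0.14, adjusted p = 0.0130 by limma). Mfap4 was at 359, 340, 484, 361 and 460 FPKM in Plod1-/- mice, all below the lowest WT mouse, with a log2 fold change of -0.65 (SE 0.13, adjusted p = 0.0263 by limma). Eln did not pass: its Plod1-/- values of 98.3, 191, 150, 514 and 306 FPKM overlapped those of WT mice, and the log2 fold change of 0.25 had a 95% interval from -0.78 to 1.29. Fbln2 (log2 fold change -0.54, adjusted p = 0.0555 by limma) and Emilin1 (0.34, adjusted p = 0.0824 by limma) lay near the threshold. The intervals of Fbn1, Mfap2, Fbln5 and Efemp2 lay within -0.41 to 0.45.

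In this comparison 0 of the 10 genes were higher and 3 were lower with the limma test, against 3.33% and 3.23% of the 11999 genes tested. At an unadjusted p below 0.05, 1 was higher and 4 were lower. One gene, Fbln1, had a log2 fold change above 1 in size, as did 0.767% of all genes, and the groups did not overlap in 3 of 10, against 9.52% of all genes. The median log2 fold change was -0.10 for the 10 genes and -0.01 for all genes. Of 8 fibroblast markers 3 were also lower, and their summed FPKM was 352 to 732 in Plod1-/- against 673 to 1151 in WT mice, all 8 being above 0 in every mouse; their part in the lower Fbln1, Mfap4 and Mfap5 was not tested. The Mfap4 call was lost without WT replicate 2 or 4 or Plod1-/- replicate 2 or 4, with adjusted p by limma between 0.0230 and 0.0612 over the 10 fits that left out a mouse. Fbln2 passed without WT replicate 5 (-0.61, adjusted p = 0.0471 by limma). The 3 calls held without Plod1-/- replicate 5, the library with Xist RNA in this comparison (Fbln1 -1.35, Mfap4 -0.70 and Mfap5 -0.91). That fit is also 1 of the 10 that left out a mouse. With all 4 groups in one fit only Fbln1 passed (Mfap5 adjusted p = 0.0544 and Mfap4 0.170 by limma). Without the filter on low values only Mfap5 passed (Fbln1 adjusted p = 0.0694 and Mfap4 0.0898 by limma).

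In WT mice, Ang II was followed by lower expression of 6 of the 10 genes and by higher expression of none. Mfap4 showed the largest change of the 10, from the saline values above to 155, 207, 204, 376 and 158 FPKM. No Ang II-treated WT mouse reached the lowest saline-treated one, and replicate 4 lay well above the others of its group. The log2 fold change of Mfap4 was -1.58 (SE 0.23, adjusted p = 0.00181 by limma), or 0.335-fold. Mfap5 fell to 46.6, 38.5, 33.6, 53.8 and 35.1 FPKM (log2 fold change -0.90, SE 0.15, adjusted p = 0.00253 by limma). Fbln1 fell to 62.6, 83.1, 70.2, 93.3 and 79.9 FPKM (log2 fold change -0.64, SE 0.16, adjusted p = 0.0126 by limma). For both genes the groups did not overlap. Fbln5, needed for elastin assembly, fell from 119, 91.6, 78.9, 107 and 74.5 FPKM to 39.6, 41.7, 47.9, 91.6 and 46.5 FPKM, and only replicate 4 lay within the saline range. Its log2 fold change was -0.86 (SE 0.22, adjusted p = 0.0148 by limma). Fbn1 fell from 22.2, 21.2, 17.4, 20.2 and 19.3 FPKM to 17.2, 8.91, 12.7, 19.5 and 9.51 FPKM (log2 fold change -0.59, adjusted p = 0.0356 by limma), with overlap through replicate 4. Efemp2 fell from a mean of 76.7 to 54.3 FPKM (log2 fold change -0.50, adjusted p = 0.0255 by limma).

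Eln was at 140, 81.0, 80.3, 75.7 and 119 FPKM in Ang II-treated WT mice, a narrower range than under saline, and its log2 fold change of -0.89 did not pass (SE 0.34, adjusted p = 0.0590 by limma). Fbln2 was at 62.9 FPKM in replicate 1 and between 23.6 and 25.7 FPKM in the other 4 mice. Replicate 1 was also the WT mouse with the highest summed FPKM of 8 macrophage markers, 1777 against 302 to 451 in the other 4. In Ang II-treated Plod1-/- mice replicate 1 was lowest in both Fbln2 and this sum (65.2 and 862 FPKM). However, Fbln2 was highest in replicate 5 (203 FPKM, sum 2328 FPKM) and the sum in replicate 3 (4732 FPKM, Fbln2 100 FPKM). The part of macrophages in the Fbln2 values was not tested. Mfap2 (log2 fold change -0.25) and Emilin1 (-0.16) did not pass.

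With limma, 0 of 10 genes were higher and 6 were lower in WT mice, where 16.5% and 21.5% of the 11994 genes tested were higher and lower, and the same counts at an unadjusted p below 0.05 were 0 and 7. Only Mfap4 had a log2 fold change above 1 in size, against 8.66% of all genes, and the groups did not overlap for 3 of 10, against 17.3% of all genes. The median log2 fold change was -0.62 for the 10 genes and -0.14 for all genes. Smooth muscle markers were lower as well (6 of 8, with the sums given above). Of adipocyte markers 6 of 7 tested were higher, with sums of 989 to 5196 FPKM against 182 to 672 FPKM. Sums of skeletal muscle markers ran from 3.09 to 323 FPKM under Ang II against 3.73 to 6.49 FPKM. The mean mitochondrial share of summed FPKM was 23.3% against 11.1%. The part of these shifts in the lower values was not tested. Without mitochondrial genes the count was also 6. The Fbn1 call was lost without saline-treated replicate 1, 2, 4 or 5 or Ang II-treated replicate 2, 3 or 5 (adjusted p by limma from 0.00499 to 0.0904 over 10 fits), and the Efemp2 call without saline-treated replicate 1 or 2 or Ang II-treated replicate 2, 3 or 5 (0.00478 to 0.0671). Eln passed without saline-treated replicate 3 (-1.17, adjusted p = 0.0168 by limma) or Ang II-treated replicate 1 (-1.03, adjusted p = 0.0464 by limma).

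In Plod1-/- mice the response to Ang II was split: Fbln2, Mfap5, Fbn1 and Mfap2 rose, whereas Fbln5 and Mfap4 fell. Fbln2 was at 21.3, 25.3, 21.9, 15.9 and 20.3 FPKM under saline and at 65.2, 99.6, 100, 161 and 203 FPKM under Ang II. Every Ang II-treated mouse lay above the highest saline-treated mouse, with the lowest at 65.2 against 25.3 FPKM. The log2 fold change was 2.43 (SE 0.27, adjusted p = 0.000114 by limma), or 5.41-fold. Fbln5 was at 88.3, 82.1, 89.1, 99.9 and 141 FPKM under saline and at 30.9, 25.3, 28.7, 26.2 and 44.1 FPKM under Ang II, again without overlap. Its log2 fold change was -1.66 (SE 0.18, adjusted p = 0.000106 by limma), or 0.317-fold, so the transcripts of these fibulins changed in opposite directions in this comparison.

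Among the microfibril genes of Plod1-/- mice, Mfap5 was at 101, 78.4, 107, 107 and 201 FPKM under Ang II, all above the saline-treated mice (log2 fold change 1.36, SE 0.23, adjusted p = 0.00100 by limma). Fbn1 was at 20.95, 15.2, 15.2, 17.4 and 20.0 FPKM under saline and at 20.96, 25.7, 39.7, 54.1 and 89.9 FPKM under Ang II. The groups of Fbn1 were separated only by the gap between replicate 1 of each, and Ang II-treated replicate 1 stood at the saline level. Its log2 fold change was 1.15 (SE 0.34, adjusted p = 0.0182 by limma). Mfap2 was at 17.2 to 22.7 FPKM under saline and at 19.0 to 71.7 FPKM under Ang II, with overlap (log2 fold change 0.80, SE 0.28, adjusted p = 0.0377 by limma). Mfap4, in contrast, fell to 177, 190, 222, 179 and 373 FPKM, with replicate 5 inside the saline range (log2 fold change -0.86, SE 0.22, adjusted p = 0.00911 by limma).

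Eln was at 252, 190, 691, 350 and 472 FPKM in Ang II-treated Plod1-/- mice, and the log2 fold change of 0.72 over saline did not pass (95% interval -0.31 to 1.75, adjusted p = 0.234 by limma). Fbln1 was at 30.5, 28.5, 30.2, 22.8 and 47.9 FPKM, with a log2 fold change of -0.67 near the threshold (adjusted p = 0.0572 by limma). Emilin1 ran from 40.1 to 66.5 FPKM against 36 to 48.9 FPKM under saline (0.34, adjusted p = 0.0993 by limma). Efemp2 had a log2 fold change of -0.06 (95% interval -0.45 to 0.34), although its spread widened from an SD of 3.20 to 20.5 FPKM.

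In Plod1-/- mice 4 of 10 genes were thus higher and 2 lower, where 23.8% and 20.1% of the 12333 genes tested were. For 4 of 10 the log2 fold change exceeded 1 in size, against 13.9% of all genes, and for 4 of 10 the groups did not overlap, against 29.2% of all genes. The median log2 fold change was 0.53 for the 10 genes and 0.05 for all genes. With quantile normalization, which moved that median of all genes by -0.14, the split was 3 higher and 3 lower, because Mfap2 no longer passed and Fbln1 did. Smooth muscle markers were lower in 7 of 8 and macrophage markers higher in 8 of 8, with sums of 862 to 4732 FPKM against 91.1 to 377 FPKM, and their part in these changes was not tested. The macrophage marker Itgam was tested only because of its level under Ang II (3.74 to 22.8 FPKM, against 0.447 to 0.871 FPKM under saline), so its count has no weight. The Mfap2 call was lost without saline-treated replicate 1, 2, 3 or 4 or Ang II-treated replicate 1, 3 or 4 (adjusted p by limma from 0.00884 to 0.0742 over 10 fits) and without both libraries with Xist RNA (0.86, adjusted p = 0.0626 by limma). It was also lost without mitochondrial genes (0.72, adjusted p = 0.0761 by limma). Without those libraries Fbn1 (1.42), Fbln2 (2.63), Fbln5 (-1.53), Mfap4 (-0.73) and Mfap5 (1.49) kept their calls, and Emilin1 passed (0.48, adjusted p = 0.0278 by limma), as it did without Ang II-treated replicate 1 alone (0.45, adjusted p = 0.0198 by limma). Fbln1 passed without saline-treated replicate 4 (-0.85) or Ang II-treated replicate 5 (-0.83).

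Under Ang II, Plod1-/- mice differed from WT mice in 8 of the 10 genes: Fbln2, Eln, Fbn1, Mfap5, Mfap2 and Emilin1 were higher, and Fbln1 and Fbln5 were lower. Eln had a mean of 391 ± 199 FPKM (SD, n = 5) in Plod1-/- and 99.1 ± 28.6 FPKM (SD, n = 5) in WT mice. The lowest Plod1-/- mouse, at 190 FPKM, lay above the highest WT mouse, at 140 FPKM. The log2 fold change of Eln was 1.87 (SE 0.34, adjusted p = 0.00413 by limma), or 3.64-fold, and of the 4 pairwise comparisons, each fitted on its own 10 mice, Eln passed in this one alone. Fbln2 was 3.81-fold higher (log2 fold change 1.93, SE 0.34, adjusted p = 0.00403 by limma), with WT replicate 1 at 62.9 FPKM just below the lowest Plod1-/- mouse at 65.2 FPKM. Fbn1 was 2.95-fold higher (log2 fold change 1.56, SE 0.37, adjusted p = 0.0112 by limma) and Mfap5 2.72-fold higher (log2 fold change 1.44, SE 0.24, adjusted p = 0.00291 by limma). Emilin1 was 1.80-fold higher (log2 fold change 0.84, SE 0.18, adjusted p = 0.00804 by limma), and its lowest Plod1-/- value was 40.1 FPKM against a highest WT value of 39.2 FPKM. Mfap2 was 2.19-fold higher (log2 fold change 1.13, adjusted p = 0.0195 by limma) with overlapping groups. Fbln1 was 0.410-fold, at 32.0 ± 9.44 FPKM against 77.8 ± 11.8 FPKM (SD, n = 5 each), without overlap (log2 fold change -1.28, SE 0.19, adjusted p = 0.00196 by limma). Fbln5 was 0.607-fold, with overlap (log2 fold change -0.72, SE 0.24, adjusted p = 0.0400 by limma). Mfap4 reached similar means, 228 and 220 FPKM, from different saline levels, and its log2 fold change of 0.07 had a 95% interval from -0.55 to 0.70.

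**Figure D2:**
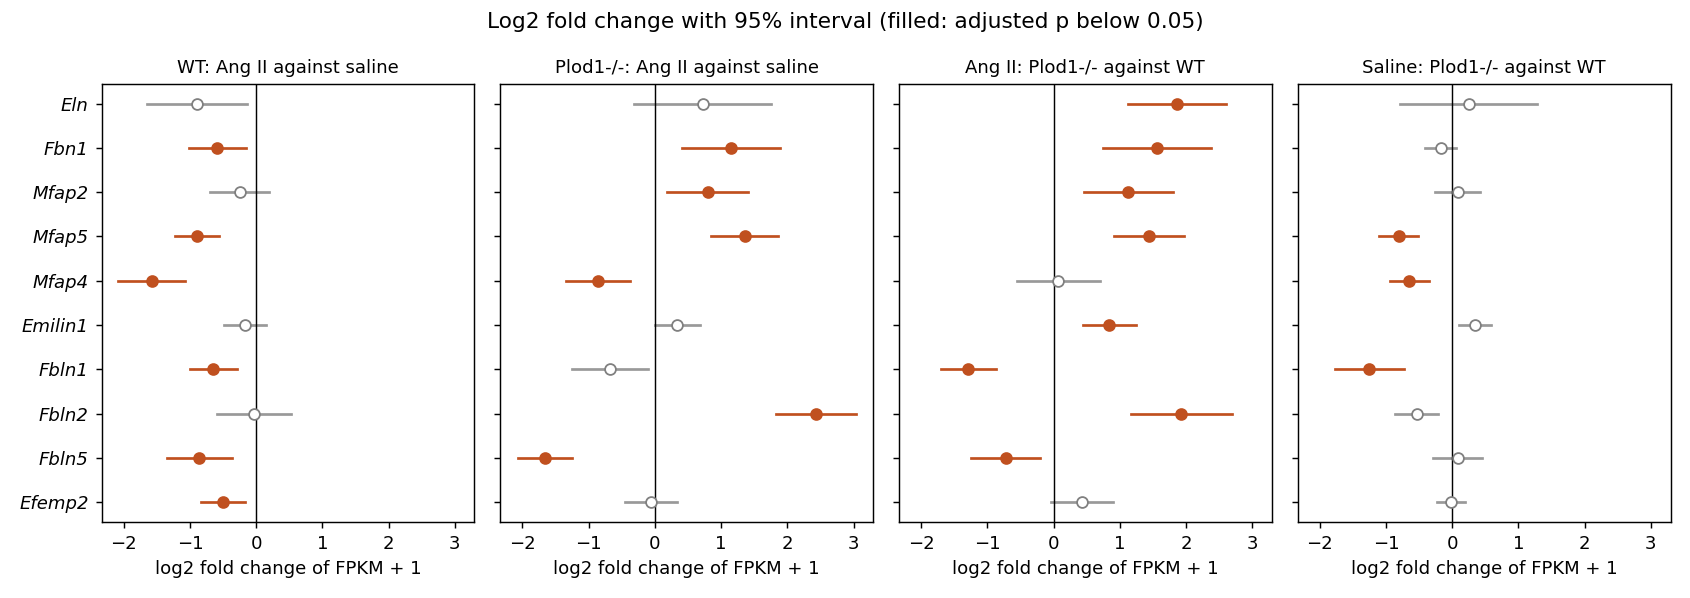
Log2 fold change of FPKM + 1 (x axis) with its 95% interval for each gene (rows) in 4 comparisons of 5 against 5 mice; filled points have an adjusted p by limma below 0.05. The 6 filled points for WT mice under Ang II all lie below 0, while Plod1-/- mice have 4 above and 2 below.

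The counts between the Ang II-treated genotypes were 6 higher and 2 lower of 10, against 20.8% and 10.4% of 12356 genes tested. For 6 of 10 the log2 fold change exceeded 1 in size, where 11.1% of all genes did, and for 6 of 10 the groups did not overlap, where 15.1% of all genes did. The median log2 fold change was 0.99 for the 10 genes and 0.12 for all genes, and quantile normalization moved the latter by -0.16 without changing the counts. In Plod1-/- mice macrophage markers were higher in 8 of 8 and neutrophil markers in 4 of 5 tested, while smooth muscle, fibroblast and adipocyte markers were lower in 2 of 8 each and skeletal muscle markers in 2 of 5 tested. Cxcr2, Mmp8 and Itgam, with WT medians of 0.186, 0.219 and 0.741 FPKM, reached the filter mainly through Ang II-treated Plod1-/- mice. Their counts thus have no weight. The mean mitochondrial share of summed FPKM was 13.4% against 23.3% in WT mice, and the part of these shifts in the differences of the 10 genes was not tested. Of the mice that stood apart, Ang II-treated Plod1-/- replicate 1 had the lowest Fbln2, Fbn1 and Emilin1 of its group. Without it, which here is also the fit without Xist RNA, the same 8 genes passed, with log2 fold changes of 1.99 for Eln, 1.79 for Fbn1, 2.14 for Fbln2 and 0.95 for Emilin1. The Fbln5 call was lost without WT replicate 2, 3 or 5 or Plod1-/- replicate 2, 3 or 4 (adjusted p by limma from 0.0270 to 0.0944 over 10 fits), and the Mfap2 call without WT replicate 2 or 3 (0.00964 to 0.0540).

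The difference between the 2 Ang II responses was tested directly as the genotype by treatment interaction over all 20 mice. The response of Fbln2 was 2.47 higher on the log2 scale in Plod1-/- than in WT mice (SE 0.39, adjusted p = 0.000211 by limma). That of Mfap5 was 2.25 higher (SE 0.28, adjusted p = 3.29e-05 by limma), since Mfap5 fell in WT and rose in Plod1-/- mice. Fbn1 showed the same reversal, with a difference of 1.74 (SE 0.41, adjusted p = 0.00328 by limma). Its fall in WT mice, however, did not pass with all 4 groups in one fit (-0.59, adjusted p = 0.107 by limma). Nor did it pass without the filter on low values (adjusted p = 0.0940 by limma). Eln (1.61, adjusted p = 0.0446 by limma) and Mfap2 (1.05, adjusted p = 0.0283 by limma) also responded differently, and Fbln5 fell further in Plod1-/- mice (-0.80, adjusted p = 0.0437 by limma). The responses of Fbln1 differed by -0.03 (95% interval -0.69 to 0.63). Those of Mfap4 (0.72, adjusted p = 0.0839 by limma), Emilin1 (0.50, adjusted p = 0.0699 by limma) and Efemp2 (0.44, adjusted p = 0.145 by limma) did not pass.

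In all, 5 of 10 genes had a higher and 1 a lower response in Plod1-/- mice, against 23.8% and 14.1% of 13263 genes, and the difference exceeded 1 in size for 5 of 10, against 16.1% of all genes. These differences use the same mice as the pairwise comparisons and are not separate evidence. The response was also higher in Plod1-/- mice for 8 of 8 macrophage and 5 of 5 tested neutrophil markers and lower for 3 of 8 smooth muscle, 3 of 8 adipocyte and 3 of 5 tested skeletal muscle markers, and the part of these shifts was not tested. Here too, Cxcr2, Mmp8 and Itgam reached the filter mainly through Ang II-treated Plod1-/- mice, so their counts have no weight. The Eln call was lost without the filter on low values (adjusted p = 0.109 by limma), with weights per mouse (1.45, adjusted p = 0.0537 by limma) and without mitochondrial genes (adjusted p = 0.0592 by limma), where the Mfap2 call was lost as well (0.94, adjusted p = 0.0578 by limma). It was also lost when any 1 of 13 mice was left out and held without saline-treated WT replicate 3 or 5, Ang II-treated WT replicate 1, saline-treated Plod1-/- replicate 4 or 5, or Ang II-treated Plod1-/- replicate 1 or 2 (adjusted p by limma from 0.0154 to 0.0874 over 20 fits). The Fbln5 call was lost without saline-treated WT replicate 2, 3 or 5, Ang II-treated WT replicate 3, 4 or 5, saline-treated Plod1-/- replicate 4 or 5, or Ang II-treated Plod1-/- replicate 2, 3 or 4 (0.0208 to 0.0830), and without both libraries with Xist RNA (-0.68, adjusted p = 0.0890 by limma). The Mfap2 call was lost without saline-treated WT replicate 1 or Ang II-treated WT replicate 2 or 3 (0.00706 to 0.0565). Without Ang II-treated WT replicate 3, the count was 3. Emilin1 passed without both libraries with Xist RNA (0.64, adjusted p = 0.0228 by limma), without Ang II-treated Plod1-/- replicate 1 (0.61) and without Ang II-treated WT replicate 1 (0.60). Mfap4 passed without Ang II-treated WT replicate 4 (0.94, adjusted p = 0.0101 by limma) and Efemp2 without Ang II-treated Plod1-/- replicate 2 (0.58, adjusted p = 0.0345 by limma).

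Because FPKM is a level per length, the 10 levels can be summed within a mouse to describe the make-up of these transcripts. In WT mice the sum was 1303 ± 218 FPKM under saline and 637 ± 127 FPKM under Ang II (SD, n = 5 each). In Plod1-/- mice it was 1025 ± 184 and 1140 ± 376 FPKM. Mfap4 made up 48.5 ± 3.47% of it in saline-treated WT mice and 20.4 ± 3.92% in Plod1-/- mice under Ang II. Eln, in contrast, took 14.8 ± 5.71% and 33.3 ± 9.51% in the same groups. In Ang II-treated Plod1-/- mice Eln was thus the most abundant on average, Fbln2 moved from rank 8 in saline-treated WT mice to rank 3, and Fbln1 and Fbln5 moved from ranks 3 and 4 to ranks 9 and 10. All neighbours in the order of Ang II-treated Plod1-/- mice overlapped. The share of Fbln2 went from 2.40% to 5.15% with Ang II in WT and from 2.13% to 11.2% in Plod1-/- mice. Fbln5 held 9.77% in saline-treated and 2.85% in Ang II-treated Plod1-/- mice. These shares are given as a description, without a test.

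**Figure D3:**
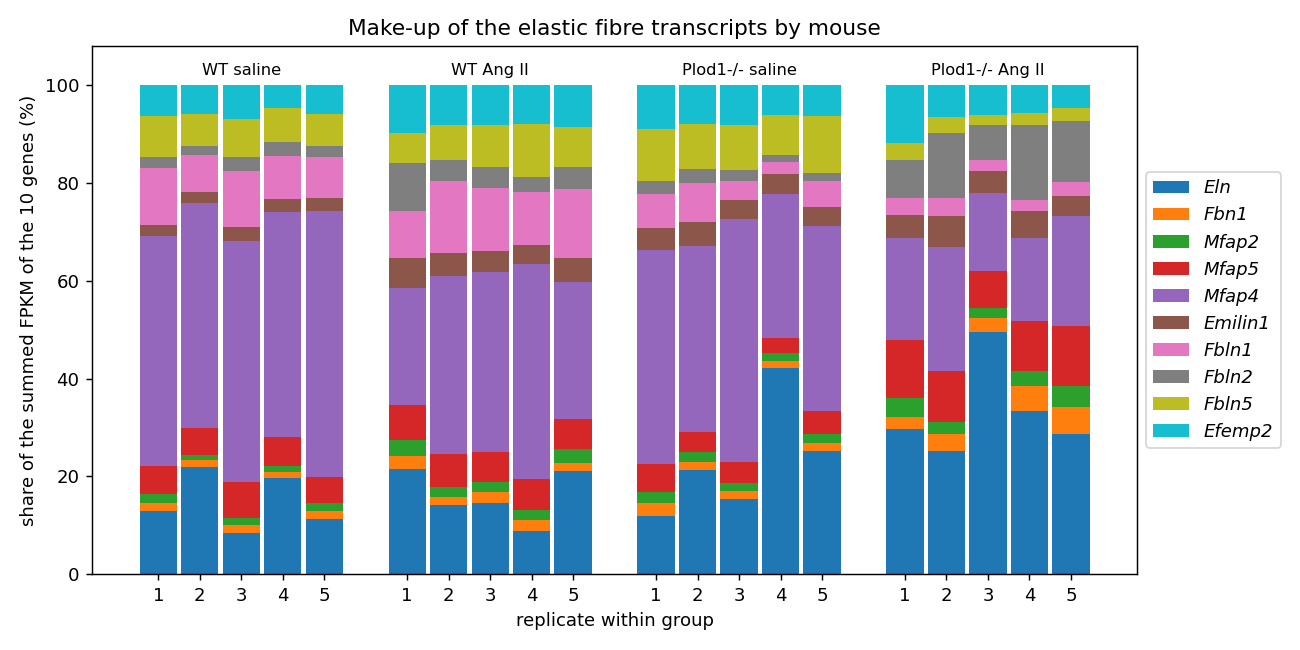
Share of each gene in the summed FPKM of the 10 elastic fibre genes (y axis, %) for every mouse (x axis, replicates within 4 groups). Mfap4 takes 46.0 to 54.2% in saline-treated WT mice and 15.9 to 25.3% in Ang II-treated Plod1-/- mice, where Eln takes 25.2 to 49.5%.

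Variation between mice differed among the genes as well as among the groups. In saline-treated WT mice the coefficient of variation was 9.11% for Fbn1 and 50.2% for Eln, and in Ang II-treated Plod1-/- mice it was 60.1% for Fbn1 and 20.5% for Emilin1. Likeness of 2 genes was measured as the root-mean-square difference of their log2 values over the 20 mice, each centred on its own mean, which takes in the group differences described above. The closest pair was Fbn1 and Mfap5 (0.36), followed by Mfap2 and Emilin1 (0.36), and the most distant pair was Fbln2 and Fbln5 (1.64). Over all genes, those closest to Eln were Creb3l1 (0.49), Gp1bb (0.52), Ckap4 (0.55), Loxl1 (0.59) and Maged2 (0.60). Loxl1 encodes a lysyl oxidase that cross-links elastin. Those closest to Fbn1 were Grb10 (0.22), Cd276 (0.23), Hif1a (0.27), Rcn1 (0.27) and Il1r1 (0.27). Of genes named after their values were seen, the macrophage marker Mrc1 (0.24) was closest to Fbln2 and the fibroblast marker Pi16 (0.285) to Fbln1. Between the Ang II-treated genotypes, 2 of 8 fibroblast markers were lower and 0 higher in Plod1-/- mice. Their median log2 fold change was 0.01, while Fbln1 was 0.410-fold, so Pi16 does not stand for that list. All root-mean-square differences given here share the same 20 libraries and describe likeness of pattern alone.

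Other genes of the pathway were taken from a list of 50, of which 41 or 42 were tested in a comparison. Between the Ang II-treated genotypes 14 of 42 were higher and 3 lower in Plod1-/- mice, against 20.8% and 10.4% of all genes tested, and the median of the 42 was 0.41 on the log2 scale. The lysyl oxidases, which cross-link elastin and collagen, were among the 14. Loxl4 is counted there, but it was tested only because of its level in Ang II-treated Plod1-/- mice (1.69 to 4.24 FPKM, against 0.250 to 1.04 FPKM in Ang II-treated WT and 0.433 to 0.771 FPKM in saline-treated Plod1-/- mice), so its count has no weight. Lox was at 153 ± 83.6 FPKM in Plod1-/- and 19.4 ± 13.1 FPKM in WT mice (SD, n = 5 each; log2 fold change 2.96, adjusted p = 0.00175 by limma). Loxl2 had a log2 fold change of 2.30 (adjusted p = 0.000647 by limma), and Loxl1 and Loxl3 of 1.18 and 1.17. Elastin-degrading enzymes and their inhibitors were higher in 5 of 11, including Ctsk (1.99), Timp1 (3.27) and Ctss (3.41), which encode cathepsin K, an inhibitor of metalloproteinases and cathepsin S. Ltbp4, whose product binds latent TGF-beta and takes part in elastic fibre assembly, was lower (-1.33, adjusted p = 0.0123 by limma), as were Fbln7 (-1.70, adjusted p = 0.00334 by limma) and the cathepsin inhibitor Cst3.

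Within Plod1-/- mice, 15 of 42 of these genes rose and 10 fell under Ang II, against 23.8% and 20.1% of all genes tested, with Lox at 2.81 and Loxl2 at 1.94 on the log2 scale and Timp1 at 3.63, Ctss at 4.52 and Ctsk at 1.74. Of 6 ADAMTS and ADAMTS-like genes 4 fell, led by Thsd4 (-1.90), and so did Ltbp4 (-2.05), Ltbp1 (-1.23), Fbln7 (-2.13) and Bgn (-1.15), while Emilin2 (2.22), Tgfb1 (0.87) and Neu1 (0.56) rose. In WT mice 5 of 41 rose and 13 fell, against 16.5% and 21.5% of all genes, among the latter Lox (-0.99), Ltbp1 (-1.05), Adamtsl2 (-1.26) and Thsd4 (-1.23), and the highest increase among the 5 was that of Ctss (1.38). Under saline 1 of 41, Ltbp2 (0.52), was higher and 1, Mmp2 (-0.66), was lower in Plod1-/- mice, against 3.33% and 3.23% of all genes. In the interaction 15 of 42 had a higher and 4 a lower response in Plod1-/- mice, against 23.8% and 14.1% of all genes, with Lox at 3.80 (adjusted p = 6.57e-05 by limma), Timp1 at 3.72 (adjusted p = 0.000759 by limma) and Ltbp4 at -1.80 (adjusted p = 0.00186 by limma). In Plod1-/- mice under Ang II, Ctss, Ctsk and Timp1 were higher where 8 of 8 macrophage markers were. In WT mice under Ang II, 2 of 7 tested macrophage markers were higher, while Ctsk fell (-0.74) and Timp1 did not pass (-0.09). The part of macrophages in these values was not tested.

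**Figure D4:**
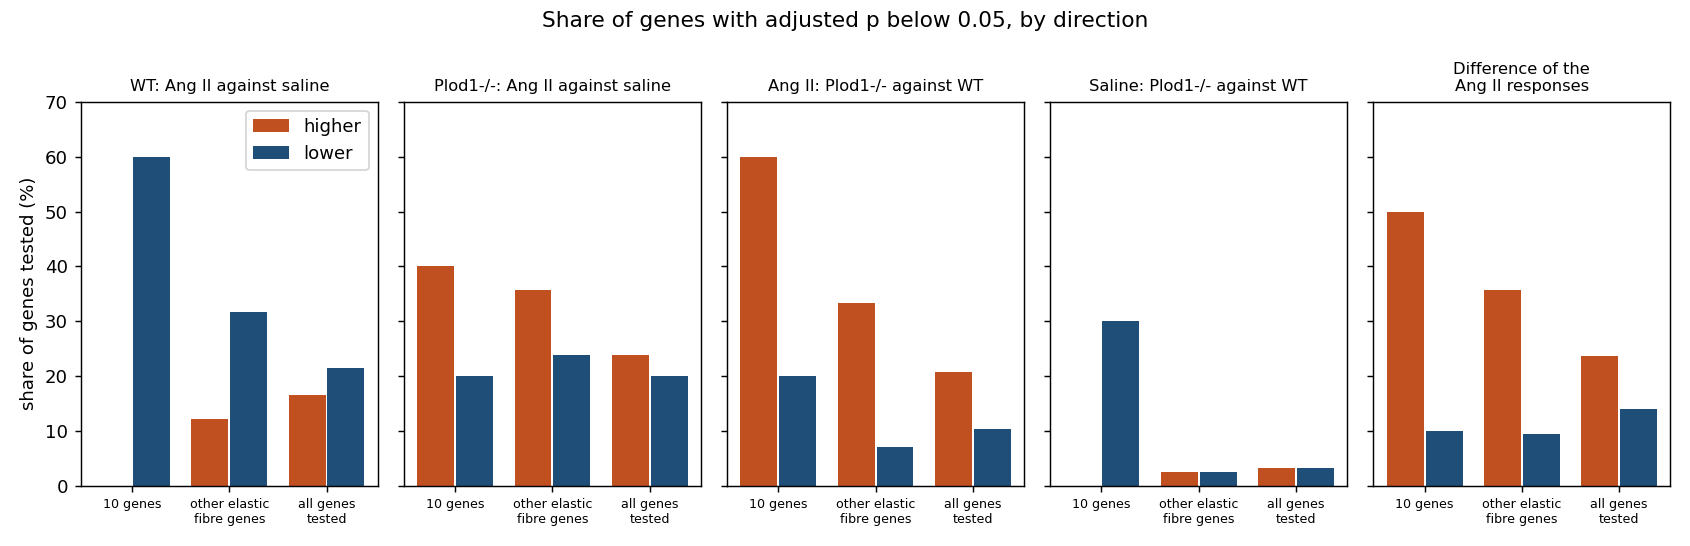
Share of genes tested (y axis, %) with an adjusted p by limma below 0.05, higher (orange) or lower (blue), for the 10 elastic fibre genes, the other listed elastic fibre genes and all genes tested, in 5 comparisons. In WT mice 6 of the 10 genes were lower and 0 higher, and between the Ang II-treated genotypes 6 were higher and 2 lower.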

How the data were processed

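Abdominal aortas of 20 mice (4 groups of 5, from the sample labels) were sequenced from libraries that do not keep strand. After removal of ribosomal reads, the authors aligned each library with HISAT2 (2.1.0 per the submitters' processing notes, with genome mm10). The study's methods give FPKM from stringtie, cuffquant and cuffnorm, while the processing notes also name Bowtie2 2.2.3 and HTSeq 0.6.0. The deposited FPKM of 43422 genes were used as they are. Read counts were not used here, so depth is unknown; relative depth, from the lowest FPKM values, was 0.896 to 1.08. FPKM + 1 was log2-transformed, and genes with FPKM of at least 1 in at least 5 mice of a fit were tested, two-sided, with limma 3.58.1 (eBayes with variance trend) in R 4.3.3, with Benjamini-Hochberg adjustment over all genes tested. All 10 genes passed this filter in every fit. A gene changed if its adjusted p was below 0.05. The study's edgeR test needs read counts and was not run. The method was tried on data simulated with the spread of the saline-treated groups, for the comparison between the saline-treated genotypes alone. It does not cover the wider spread under Ang II. Symbols and positions are from GENCODE M21 (GRCm38), promoter windows from RefSeq (GRCm38.p6). The 10 genes, the lists and the tests were chosen with earlier results of these data known. Named genes are the 10 genes in every comparison, at most 3 genes a subgroup of the pathway list by smallest p among those that passed, and the 5 genes closest to Eln and Fbn1; Xist, Fbn2, Mrc1, Pi16, Loxl1, Loxl3 and Cst3 between the Ang II-treated genotypes, and Ctss, Ctsk and Timp1 in WT mice, were named after their values were seen. Alternatives were a pseudocount of 0.1, no filter, a replicate block, no trend, weights per mouse, quantile normalization, no mitochondrial genes, no libraries with Xist RNA, all groups in one fit, an added log2 fold change above 1, and each mouse left out in turn. Protein sequences were not analysed here.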

Additional observations from a re-analysis of the deposited data

Results flagged for a closer look

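Dixon's test was run on FPKM and not on the log2 scale. It flags about 5% of sets by chance if values are normally distributed, which was not tested, so this rate need not apply. In groups of 5 mice, 7 of 40 gene-by-group sets held a mouse far above the other 4 by this test. In Ang II-treated WT mice these were Fbln2 in replicate 1 (62.9 FPKM, the next highest being 25.7), and Fbln5 (91.6 FPKM against 47.9) and Mfap4 (376 FPKM against 207) in replicate 4. Replicate 4 was also the WT mouse whose smooth muscle markers stayed at the saline level, with a summed FPKM of 17372, and replicate 1 the one with the highest macrophage marker sum, 1777 FPKM. Ang II-treated Plod1-/- replicate 1 had a similar smooth muscle sum, 17231 FPKM, but its Fbln5 was 30.9 FPKM and its Mfap4, 177 FPKM, was the lowest of its group. In saline-treated Plod1-/- mice, Mfap2 was at 22.7 FPKM in replicate 5, a library with Xist RNA, against 18.6 FPKM. In Ang II-treated Plod1-/- mice replicate 5 had Mfap2 at 71.7 FPKM (next 33.9), Mfap4 at 373 FPKM (next 222) and Mfap5 at 201 FPKM (next 107). That mouse had the lowest smooth muscle marker sum of the series, 2372 FPKM, and the highest fibroblast marker sum of its group, 924 FPKM against 480 to 611 FPKM. The part of these cells in the values was not tested.

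The Ang II response differed between the genotypes, by limma's interaction term over 20 mice, for Fbln2 (2.47 on the log2 scale, Plod1-/- minus WT), Mfap5 (2.25), Fbn1 (1.74), Eln (1.61), Mfap2 (1.05) and Fbln5 (-0.80). For Fbn1 and Mfap5 the pairwise tests passed in opposite directions in the 2 genotypes, and for Fbln5 they passed in the same direction. The call in WT mice held in 9 of 18 alternative fits for Fbn1 and in 18 of 18 for Mfap5.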

How the results depend on the processing

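Of 1030 single-gene values under the alternatives, 922 stayed on the same side of the threshold, 84 lost and 24 gained a call, and 31 changed sign where neither fit made a call; no called gene changed sign. With an added log2 fold change above 1 in size, the count of the 10 genes changed was 1 in WT mice under Ang II and 1 between the saline-treated genotypes. Between the saline-treated genotypes it was also 1 without a filter and 1 with all 4 groups in one fit. The interaction count was 3 without a filter. The filter alternative enlarges the set of genes tested from 11999 to 40080 between the saline-treated genotypes and from 13263 to 43086 in the interaction; the cause of the other shifts was not tested. Leaving out each mouse in turn gave 5 to 7 genes in Plod1-/- mice under Ang II, 4 to 7 in WT mice, 6 to 8 between the Ang II-treated genotypes, 2 to 4 between the saline-treated genotypes and 3 to 7 in the interaction. Of the mice left out, Ang II-treated WT replicate 3 moved the interaction count below 4.

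With the replicate block, limma called 0 of the 10 genes between the saline-treated genotypes (1 higher and 4 lower at an unadjusted p below 0.05), 7 in Plod1-/- mice, 6 in WT mice, 7 between the Ang II-treated genotypes and 5 in the interaction. The labels used here tie mice with the same number by that number alone. The deviations of same-numbered mice correlated between -0.33 and 0.42, and at most 2 of 5 pairs of a comparison were above 0.1. These correlations cannot show whether such mice share anything else.

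Depth is unknown, so no counting error can be given.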

Other observations

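Fbn2, which encodes fibrillin-2, a fibrillin of developing tissue, was below the filter on low values in all 5 comparisons and was singled out after its values were seen. It was at 0.495 to 6.65 FPKM, with a median of 1.33 FPKM, in Ang II-treated Plod1-/- mice. In the other groups its highest values were 0.152 FPKM in saline-treated WT, 0.0457 FPKM in Ang II-treated WT and 0.0919 FPKM in saline-treated Plod1-/- mice, so no mouse of another group reached the Ang II-treated Plod1-/- range. These values are given as a description, without a test.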
